A study of Mus musculus with 12 samples.

Results

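Wild-type (WT) oligodendrocytes were described by RNA-Seq of 4 samples, out of 12 samples and 3 genotypes in the series. The samples were chosen by their genotype label, and no expression value was used to choose them, though earlier results of these data were known. Each sample held cells pooled from 2 brains of C57BL/6 mice at postnatal day 40 (P40), so the 4 samples stand for 8 brains, and nothing further is stated about alleles of the WT mice. Brains were digested with collagenase, myelin debris was removed, and live single cells that were negative for CD45, a surface protein of leukocytes, and positive for O1 were sorted by FACS. The other genotypes, Cnp-Cre Jab1fl/fl with and without p21, were not compared here. Replicates carry the numbers of their labels, 1, 3, 5 and 6, and where 4 values are listed they follow that order.

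Oligodendrocytes are the glial cells that wrap axons of the central nervous system in myelin, a stack of compacted membrane rich in cholesterol and galactolipids. O1 is an antibody to galactocerebroside, the main galactolipid of myelin, which appears on the cell surface when progenitors differentiate. A myelinating oligodendrocyte makes very large amounts of a few membrane and adhesion proteins, and needs lipid synthesis, iron and energy to do so. The question put to these samples was which genes and gene classes take up the mRNA of such cells in the healthy P40 brain, and how evenly they do so from sample to sample.

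Totals were 110659272, 153495112, 116872375 and 90757237 counts. Levels are given as CPM, the count of a gene per 1000000 counts of its sample, with no other factor, so that 10000 CPM would be 1% of all counts. In the smallest sample 1 CPM stood for 90.8 counts, and counting error was therefore small beside the spread between samples. Errors are standard deviations (SD, n = 4), and the coefficient of variation (CV) is the SD divided by the mean. There was 1 group and hence no contrast to test, so the values below are a description. Of 55376 gene symbols, 32544 had a count in at least 1 sample and 13435 had at least 1 CPM in all 4 samples. A mean of at least 10 CPM was reached by 9853 genes, of at least 100 CPM by 1859 genes and of at least 1000 CPM by 86 genes. Genes were named by a rule of rank and list membership, except that Alas2, Gjb1, Klk6, Pdgfra, Ugt8a, Rps9, Rpl18, Rpl14, Fau, Top2a, Cdk1 and 5 sex-linked genes were chosen after their values were seen.

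WT replicate 3 stood apart from the others. Over the 9853 genes with at least 10 CPM, Pearson's r of log2(CPM + 1) was 0.947 between replicates 1 and 6, 0.903 between 1 and 5, and 0.896 between 5 and 6, but 0.799 to 0.819 in each pair with replicate 3. These are correlations across genes, which are not independent replicates. The median CV of the 9853 genes was 0.322, with an interquartile range of 0.221 to 0.438, and it was 0.230 over 9652 genes when replicate 3 was left out. Values without replicate 3 are therefore given for the classes that change most without it. The choice of scaling also shifts values between samples. With TMM factors, which assume that most genes do not differ, the median of all genes in replicate 5 rose by 0.19 on the log2 scale, and of 44 gene lists examined, 33 kept both their highest and their lowest sample under CPM, TMM and DESeq2 scaling.

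The label of mature oligodendrocytes was checked against Mbp, Cnp, Mag and Mog, and all 4 genes were among the 50 highest of the transcriptome. Mbp, the basic protein that holds the cytoplasmic faces of myelin together, had 9945, 7296, 14949 and 8816 CPM. Cnp, which encodes the enzyme of non-compact myelin whose promoter is used to drive Cre in the other samples of the study, had 5217, 6787, 11500.5 and 4914 CPM. Mag, an adhesion protein of the innermost myelin layer, had 1764, 3431, 4157 and 1643 CPM. Mog, a protein of the outermost myelin surface, had 1420, 1154, 2676 and 1388 CPM. Each of the 4 genes was highest in replicate 5, under CPM and under both other scalings, and replicates 1 and 6 were close to each other in all of them. Cnp overlaps Dnajc7 on the opposite strand, and counting by strand is not given in the sources used here, so its count may hold reads of both.

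Levels of different genes compare only per length, for which TPM, the transcripts of a gene per 1000000 transcripts, was computed from the counts and the summed exon length of each gene. That length takes in every annotated exon, so TPM is too low for a gene whose transcripts hold only part of them. On this scale the order of the 4 markers was Cnp, Mbp, Mag and Mog, with means of 7410 ± 3207, 3053 ± 891, 2812 ± 1405 and 2359 ± 922 TPM. The mean of Cnp was above that of Mbp in every sample, whereas Mbp, Mag and Mog differed from each other by less than their SD. Mag lay below Mog in replicates 1 and 6 and above it in replicates 3 and 5.

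**Figure D1:**
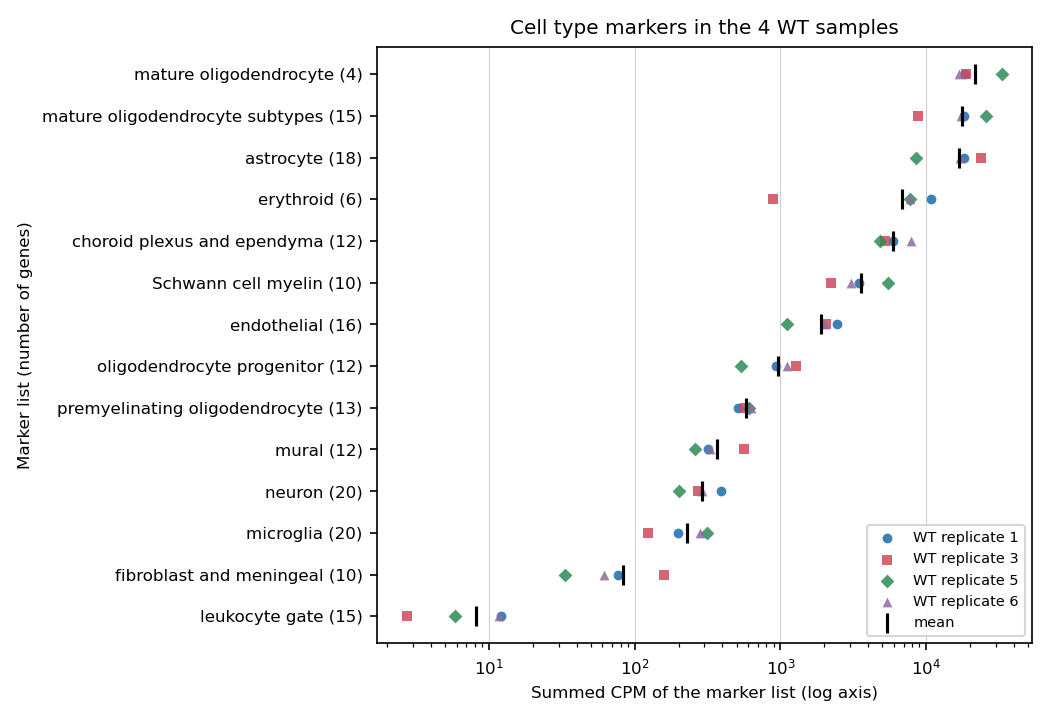
Summed CPM of each cell type marker list in the 4 WT samples, on a log axis, with the number of genes in parentheses, a point per sample and a black bar at the mean. Mature oligodendrocyte markers lie between 16761 and 33282 CPM, astrocyte markers between 8574 and 23772 CPM, and markers of leukocytes, which the CD45 gate removes, between 2.73 and 12.1 CPM.

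Stage markers of the lineage were uneven. Progenitor markers summed to 930, 1273, 539 and 1117 CPM, most of which was Ptprz1, a receptor phosphatase with 641, 994, 305 and 857 CPM. Defining progenitor genes were low: Pdgfra, the PDGF receptor, had a mean of 1.43 ± 1.63 CPM, and Cspg4, which encodes the NG2 proteoglycan, had 10.7 ± 6.70 CPM. Single premyelinating markers of at least 10 CPM had a median CV of 0.361, beside 0.322 for all genes of that level. The premyelinating markers summed to 515, 574, 608 and 629 CPM, the most even sum of the marker lists. Among them Fyn, a kinase that acts downstream of axonal contact, had 127, 135, 122 and 149.8 CPM with a CV of 0.09, Gpr17, a receptor of immature oligodendrocytes, had 21.7 ± 15.4 CPM, and Casr had 0 counts in all 4 samples. Genes that mark subtypes of mature oligodendrocytes summed to 18280, 8769, 25713 and 17240 CPM. Of these, Ptgds, Car2, Apod and Opalin led, and Klk6 and Hopx were far lower, with 91.4 ± 40.7 and 48.4 ± 25.9 CPM. Of the 10 Schwann cell myelin genes, 4 reached 1 CPM, and of the sum of 3545 ± 1374 CPM most was Mal, which oligodendrocytes also express. Pmp2, a lipid carrier of peripheral myelin, had 0 counts in all 4 samples.

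Markers of other cells were present beside those of oligodendrocytes. In bulk samples, fewer cells of a type and less RNA per cell cannot be told apart. All 18 astrocyte markers had a mean of at least 10 CPM and 17 of them at least 100 CPM, with sums of 18105, 23772, 8574 and 17066 CPM. The ratio of the astrocyte sum to the sum of Mbp, Cnp, Mag and Mog was 0.987, 1.27, 0.258 and 1.02, so it ranged over 4.94 times. The ratio to the sum of the 32 genes of compact myelin and the myelin sheath was 0.239, 0.364, 0.0670 and 0.240. Such ratios depend on which genes are listed, so they do not give the share of RNA from each cell type. Slc1a3, a glutamate transporter, had 2164, 3640, 1082 and 2427 CPM, and Ntsr2, a neurotensin receptor of astrocytes, had 2171, 2638, 1033 and 1940 CPM. Of the 18 markers, 17 were lowest in replicate 5, where 34.1% of all genes of at least 10 CPM were lowest, and 14 were highest in replicate 3, where 41.8% of all genes were highest. Under TMM scaling 17 were still lowest in replicate 5. Gfap, the intermediate filament of reactive and fibrous astrocytes, was low at 10.4, 39.7, 7.35 and 11.1 CPM. Hence the sample with the highest myelin gene levels was also the sample with the lowest astrocyte markers.

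Hemoglobin mRNA was another large component. The 6 erythroid markers summed to 10856, 887, 7785 and 7705 CPM, and the 4 hemoglobin genes Hbb-bs, Hba-a1, Hba-a2 and Hbb-bt held most of it. Hbb-bs had 4799, 293, 3327 and 3191 CPM, and replicate 3 was far below the other 3 samples. The erythroid sum was 6808 ± 4211 CPM, and 8782 ± 1797 CPM without replicate 3. Hba-a1 and Hba-a2, and likewise Hbb-bs and Hbb-bt, are near-identical copies, so the split of reads within each pair is uncertain. Alas2, the erythroid enzyme of heme synthesis, had 118 ± 59.5 CPM. Of the choroid plexus and ependyma markers, Ttr, the thyroid hormone carrier that choroid plexus epithelium secretes, had 2950, 1170, 233 and 3994 CPM. Its samples spread over a wide range, and its CV was 0.81 both with and without replicate 3. Kcnj13 and Kl, further genes of choroid plexus, had mean levels of 43.0 and 12.1 CPM, and 7 of the 8 markers of that list with at least 10 CPM were lowest in replicate 5, beside 34.1% of all genes (23.8% under TMM). The exception was Enpp2, the largest member, which is also a myelin gene and was highest in replicate 5. Endothelial markers summed to 2438, 2052, 1117 and 2006 CPM, led by Bsg with 735 ± 260 CPM and by the glucose transporter gene Slc2a1 with 344 ± 74.7 CPM, neither of which is limited to endothelium.

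Markers of the remaining types were scarce. Microglial markers summed to 197, 123, 316 and 281 CPM over 20 genes, 7 of which had a mean of at least 10 CPM. The 15 genes of leukocytes summed to 12.1, 2.73, 5.81 and 11.7 CPM, and none had a mean of 10 CPM. Ptprc, which encodes CD45 itself, had 0.108, 0, 0.154 and 1.55 CPM, and Cd3e and S100a9 had 0 counts in all 4 samples. A count of 0 still allows up to 3 counts, which is 0.0331 CPM in the smallest sample and covers counting error only. Neuronal markers summed to 388, 272, 201 and 289 CPM, mural cell markers to 320, 565, 258 and 328 CPM, and markers of fibroblasts and meninges to 77.2, 160, 33.4 and 61.8 CPM. The part that RNA of these other cells has in the levels given below was not tested.

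The mRNA was concentrated in few genes. The 30 genes with the highest mean CPM held 19.7% of all counts, the 100 highest 29.5% and the 1000 highest 55.9%. In each sample, 617, 825, 486 and 601 genes were needed to reach 50% of the counts (632 ± 141), so that counts were spread over most genes in replicate 3 and over fewest in replicate 5. Protein coding genes held 91.5, 94.4, 93.9 and 88.6% of counts, long intergenic noncoding RNAs 5.06, 3.14, 3.79 and 7.53%, and mitochondrial ribosomal RNAs 1.09, 0.232, 0.444 and 1.15%. Among the 30 genes, 28 were protein coding, 1 was a long noncoding RNA and 1 a mitochondrial ribosomal RNA.

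Malat1 was the highest gene of replicates 1, 3 and 6 and the second of replicate 5. Malat1, a long noncoding RNA kept in the nucleus (chr19:5795690-5802672, GRCm38), had 43475, 22947, 32042.5 and 66187 CPM, and was lowest in replicate 3 and highest in replicate 6. Mbp was the third gene with a mean of 10251 ± 3314 CPM, then Apoe with 9685 ± 2638 CPM, Fth1 with 8125 ± 3528 CPM, Cnp with 7105 ± 3043 CPM and Ptgds with 6855 ± 3108 CPM. From Mbp onward, each of these means differed from the next by less than its SD, so the order of these genes is not clear.

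The 30 genes covered several functions. Myelin genes, such as Mbp, Cnp, Car2 and Mag, were 8 of them and held 6.61% of all counts. The secreted proteins Apoe, Ptgds, Cst3, Clu and Sparcl1 were 5, with 2.71% of counts. The mitochondrial genome gave mt-Rnr2, mt-Cytb, mt-Co1 and mt-Nd1, with 2.04%. The cytoskeleton was represented by Tubb4a, Sept4 and Actb, iron storage by Fth1, fatty acid desaturation by Scd2, astrocytes by Slc1a3, and red cells by Hbb-bs and Hba-a1. The 3 genes of no list were Aplp1, a relative of the amyloid precursor protein, with 3010, 5158, 6219 and 2985 CPM, Ckb, the brain creatine kinase, with 3987, 3232, 3500 and 3367 CPM, and Cd81, a tetraspanin, with 3396, 2801, 4078 and 3132 CPM. Ckb was the most even of the 30 (CV 0.09), and Hbb-bs the least even (CV 0.65).

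Membership of the upper ranks was moderately stable. Of the 30 genes, 14 were among the 30 highest of every sample, and 46 genes were among the 30 highest of at least 1 sample. The list shared 26, 22, 25 and 27 genes with the 30 highest of replicates 1, 3, 5 and 6. Of the 30, 17 were lowest in replicate 3, where 28.4% of all genes of at least 10 CPM were lowest, and 15 were highest in replicate 5, where 18.7% of all genes were highest (31.9% under TMM scaling). Hbb-bs was at rank 11, 459, 21 and 20, and Hba-a1 at rank 17, 309, 28 and 24, whereas Mbp was at rank 4, 4, 3 and 5.

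**Figure D2:**
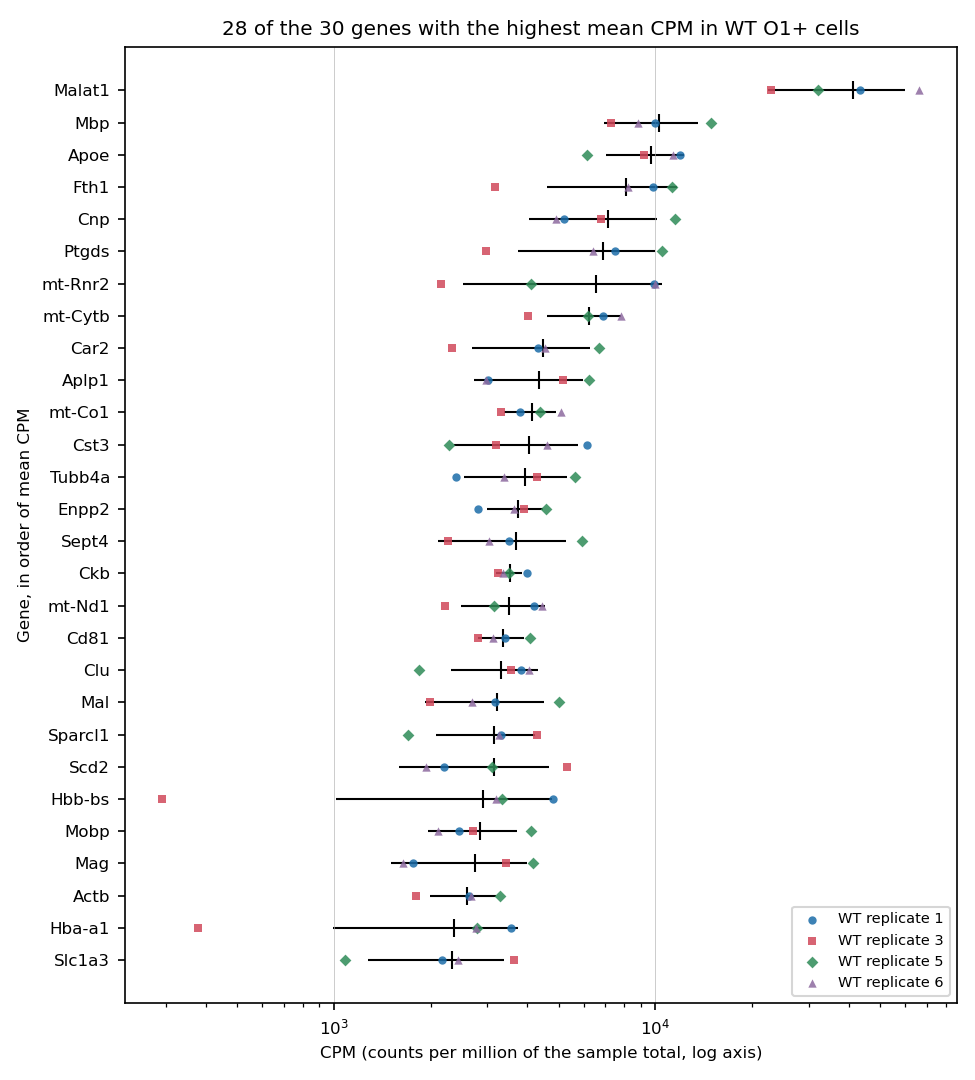
CPM of 28 of the 30 genes with the highest mean, on a log axis, with a point per WT sample, a black tick at the mean and a line of 1 SD to each side. Malat1 lies above all others shown in each sample, and the hemoglobin genes Hbb-bs and Hba-a1 in replicate 3 lie at 293 and 378 CPM, far to the left of the other samples.

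Per length, the order changed. The highest mean TPM was that of Ptgds, the prostaglandin D synthase that oligodendrocytes and meninges secrete, with 17407 ± 7260 TPM. Among the other high genes were Malat1 with 14103 ± 5763 TPM, mt-Cytb with 13065 ± 2483 TPM, Apoe with 12827 ± 3244 TPM, Fth1 with 12370 ± 4820 TPM and Cst3 with 11324 ± 3980 TPM. Each of these means differed from the next one given by less than its SD. Mbp, the third gene by CPM, was at place 27 by TPM, since its exons sum to 8123 bases, against 938 bases for Ptgds and 2357 bases for Cnp. Which of these exons the Mbp transcripts held was not examined, so the place of Mbp depends on the length used.

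Myelin genes were the largest class by share of counts. The 32 genes of compact myelin and the myelin sheath held 7.56, 6.53, 12.8 and 7.10% of all counts (8.50 ± 2.90%), and 31 of them had a mean of at least 100 CPM. Without replicate 3 their share was 9.15 ± 3.16%. Replicate 5 was the highest sample for 27 of the 32 genes, beside 18.7% of all genes of at least 10 CPM, and for 30 under TMM scaling, beside 31.9% of all genes. Replicate 3 was the lowest for 19, beside 28.4% of all genes. Car2, a carbonic anhydrase of oligodendrocytes, had 4322, 2336, 6673 and 4553 CPM. Mal, a proteolipid that organizes lipid rafts, had 3171, 1987, 5032 and 2685 CPM. In both genes replicate 3 was the lowest and replicate 5 the highest. Mobp, a small basic protein of compact myelin, had 2454, 2710, 4115 and 2115 CPM, and Enpp2, the lysophospholipase autotaxin, had 2813, 3908, 4581 and 3637 CPM (CV 0.20). Opalin, a glycoprotein of paranodal loops, had 1201, 430, 1654 and 1057 CPM. The member with the highest CV was Fa2h, which hydroxylates the fatty acids of myelin galactolipids, with 165, 654, 348.5 and 121 CPM (CV 0.75), and it was highest in replicate 3.

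Ugt8a, which makes the galactocerebroside that the O1 antibody binds, had 415, 608, 799 and 432 CPM (563 ± 179.8), and was 1 of the 32 myelin genes. The median CV of the 32 genes was 0.384, beside 0.322 for all genes of at least 10 CPM. Without replicate 3 it was 0.346, beside 0.230. Leaving out replicate 3 thus lowered the CV of the myelin genes less than that of all genes.

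**Figure D3:**
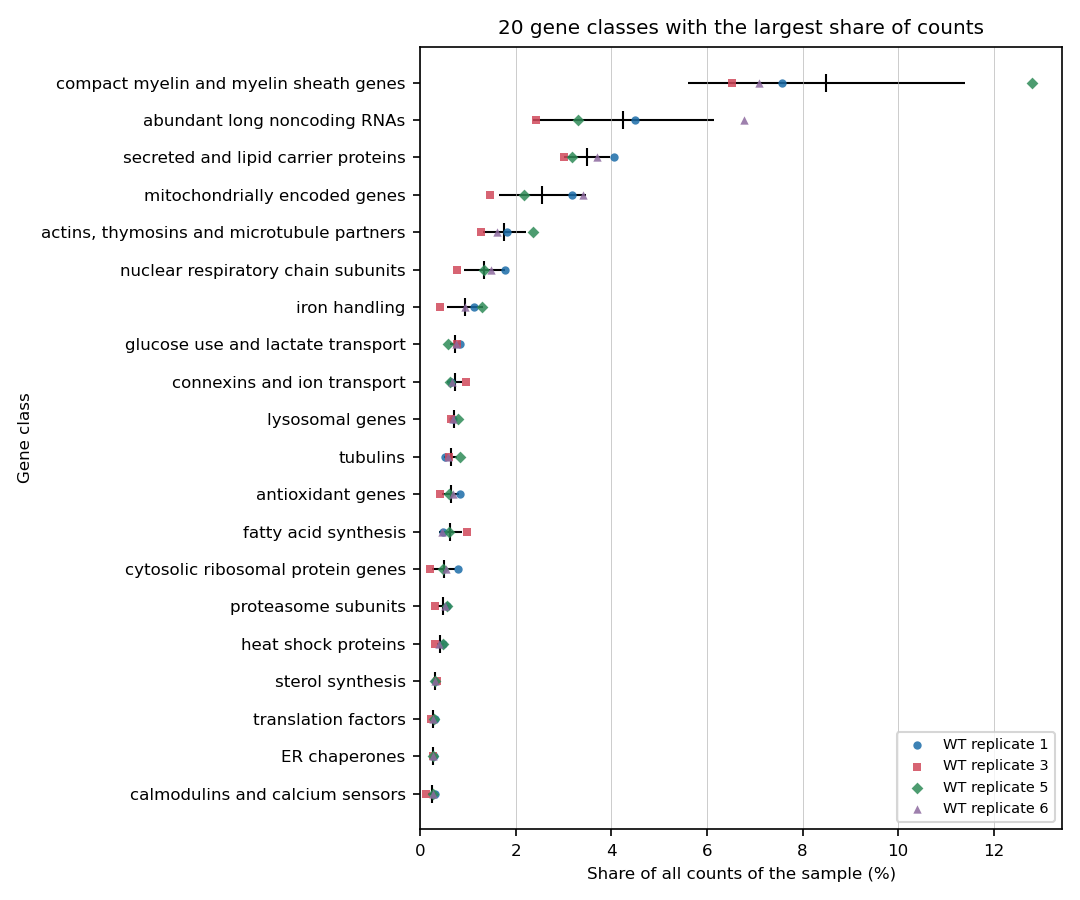
Share of all counts, in percent, taken by the 20 largest gene classes, with a point per WT sample, a black tick at the mean and a line of 1 SD to each side. Myelin genes hold 6.53 to 12.8% and are followed by long noncoding RNAs, secreted proteins and mitochondrially encoded genes, each of which holds at most 6.78% in any sample.

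Transcription factors of the lineage were all present. The 12 factors summed to 1998, 2880, 2744 and 1770 CPM and each had a mean of at least 10 CPM. Olig1 led with 635, 830, 1019 and 536 CPM, and Olig2, its partner that specifies the lineage, had 156, 146, 166 and 91.3 CPM. Nkx6-2, a homeobox factor of mature oligodendrocytes, had 479, 313, 581 and 408 CPM, and Sox8 had 207 ± 48.6 CPM. Sox10, which activates myelin genes, had 83.1, 433, 164 and 85.8 CPM, and Myrf, the membrane-bound factor needed to start and keep myelination, had 74.2, 230, 111 and 66.6 CPM. Both were highest in replicate 3, as was Zfp536, with 68.6, 263, 145 and 75.1 CPM. The summed exons of Sox10, Myrf and Zfp536 are 2780, 5677 and 5047 bases. Zeb2 had 150 ± 26.1 CPM, St18 93.4 ± 26.2 CPM and Zfp488 15.4 ± 2.02 CPM. Tcf7l2, a factor of Wnt signalling used at the onset of differentiation, had 89.7, 97.2, 45.7 and 96.1 CPM and was lowest in replicate 5. Nkx2-2, which precedes maturation, was the lowest of the 12 with 6.20, 13.2, 7.52 and 13.2 CPM.

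Genes of contact with the axon had unlike levels. Of the 10 axo-glial adhesion genes, 8 had a mean of at least 10 CPM. Ncam1 led with 732, 1145, 944 and 892 CPM. Cntn2, which gathers potassium channels beside the paranode, had 205, 757, 328 and 207 CPM, and Nfasc, whose glial form anchors the paranode, had 167, 487, 264 and 172 CPM. Both were highest in replicate 3, and their CVs of 0.70 and 0.55 were 0.29 and 0.27 without it. The median CV of the class fell from 0.514 to 0.237 without replicate 3.

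Connexins couple oligodendrocytes with astrocytes. Gjb1, a connexin gene of oligodendrocytes, had 209.7 ± 86.9 CPM, and Gjc3, a further one, had 545, 436, 875 and 644 CPM. Gja1, the main connexin of astrocytes, had 1199, 2546, 766 and 1181 CPM. Atp1b3, a subunit of the sodium pump, had 863, 502, 1343 and 860 CPM. Gja1 thus ran highest in replicate 3 and lowest in replicate 5, and Gjc3 and Atp1b3 ran the other way. Gja1 is itself 1 of the 18 astrocyte markers.

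The sum of the sterol synthesis genes was even, whereas fatty acid and sphingolipid genes were less so. The 23 sterol synthesis genes summed to 3019, 3521, 3039 and 3026 CPM, of which 22 had a mean of at least 10 CPM. Msmo1, a methylsterol oxidase, had 732, 612, 584 and 754 CPM, and Fdft1, the squalene synthase at the first step committed to sterols, had 305, 265, 283 and 284 CPM (CV 0.06). Fdft1 overlaps Ctsb on the opposite strand. Which sample was highest or lowest for the sterol sum changed with the scaling. The 17 fatty acid synthesis genes summed to 4776, 9838, 5945 and 4630 CPM, and 12 of them were highest in replicate 3, where 41.8% of all genes of at least 10 CPM were highest. Without replicate 3 the sum was 5117 ± 721 CPM. Scd2, a desaturase, made up the largest part with 2199, 5331, 3101 and 1929 CPM. Elovl1, which elongates very long chains for sphingolipids, had 369, 279.5, 599 and 412 CPM. Sphingolipid synthesis genes other than those counted as myelin summed to 1013, 982, 1236 and 1036 CPM, led by Degs1, which forms ceramide, with 455, 363, 724 and 477 CPM.

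Iron and secreted proteins ranked high. The 14 iron handling genes held 1.11, 0.412, 1.29 and 0.942% of counts, most of it Fth1, the heavy chain of ferritin, with 9835, 3180, 11280.4 and 8206 CPM. Oligodendrocytes are known as the most iron-rich cells of the brain. Ftl1, the light chain, had 443, 173, 402 and 359 CPM, and Trf, the iron carrier transferrin, had 521, 372, 817 and 504 CPM. All 3 were lowest in replicate 3, and the CV of the class sum was 0.404 with it and 0.157 without it. Slc40a1, the iron exporter, had 6.25, 24.2, 4.86 and 12.6 CPM, and Timd2, a ferritin receptor, had 0 counts in all 4 samples. Fth1 has processed copies in the genome, and how reads that match several places were counted is not given in the sources used here.

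The 15 secreted and lipid carrier proteins held 4.06, 3.01, 3.18 and 3.71% of counts. Apoe, the lipid carrier of brain that astrocytes make in quantity, had 11970, 9233, 6144 and 11392 CPM, and Clu, a further apolipoprotein, had 3826, 3569, 1835 and 4034 CPM. Cst3, a protease inhibitor, had 6119, 3193, 2280 and 4608 CPM. All 3 were lowest in replicate 5, as the astrocyte markers were. Ptgds, with 7520, 2979, 10506 and 6415 CPM, and Apod, with 2640.5, 908, 3001 and 2546 CPM, were highest in replicate 5, as the myelin genes were. Psap, the precursor of the saposins, had 263, 1627, 719 and 424 CPM and the highest CV of the class (0.80).

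Cytoskeletal genes formed a further large class. Actins, thymosins and microtubule partners held 1.81, 1.27, 2.36 and 1.61% of counts over 25 genes, and tubulins held 0.520, 0.594, 0.838 and 0.591% over 13 genes. Tubb4a, a tubulin in which mutations cause hypomyelination, had 2394, 4283, 5645 and 3377 CPM, and Tuba1a had 1551, 835, 2006 and 1382 CPM. Sept4, which belongs to the septin filaments that line myelin, had 3519, 2261, 5922 and 3034 CPM. Actb had 2637, 1806, 3279 and 2671 CPM. Tmsb4x, a thymosin that binds free actin, had 2698, 446, 1876 and 1824 CPM and Tppp, which promotes microtubule growth in oligodendrocyte processes, 293, 948, 572 and 235 CPM. In replicate 3 Tmsb4x was the lowest and Tppp the highest of the 4 samples.

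Mitochondrially encoded genes and nuclear subunits of the respiratory chain were mostly lowest in replicate 3. Mitochondrially encoded genes held 3.18, 1.46, 2.17 and 3.41% of counts, with ribosomal and transfer RNAs included. Of these genes, 15 had at least 10 CPM, among them 2 ribosomal and 2 transfer RNAs. All 15 were lowest in replicate 3 under each scaling, beside 28.4% of all genes (32.1% under TMM). Without replicate 3 the share of mitochondrially encoded genes was 2.92 ± 0.660%. The ribosomal RNA mt-Rnr2 had 9887, 2157, 4092 and 9951 CPM (CV 0.61). The mRNA mt-Co1, of the main subunit of cytochrome oxidase, had 3785, 3311, 4375 and 5084 CPM (CV 0.19). The mRNAs mt-Cytb and mt-Nd1 had CVs of 0.26 and 0.29. The 83 nuclear subunits of the respiratory chain held 1.78, 0.760, 1.33 and 1.49% of counts, and 72 of the 76 with at least 10 CPM were lowest in replicate 3, beside 28.4% of all genes. Without it their share was 1.53 ± 0.232%. Atp5b, the catalytic subunit of the ATP synthase, was nearly even at 1027, 741, 986 and 948 CPM (CV 0.14), whereas Cox4i1 had 720, 214, 484 and 577 CPM. Genes of glucose use and lactate transport summed to 8340, 7732, 5763 and 7555 CPM and were lowest in replicate 5. Of these, Aldoc, which is also an astrocyte marker, had 2621, 2281, 1272 and 2137 CPM, Gapdh 792 ± 133 CPM and Eno1 736 ± 154 CPM. Antioxidant genes summed to 6335 ± 1686 CPM and were led by the metallothionein gene Mt1 with 1643, 715, 559 and 1359 CPM and by Gstp1 with 1124, 483, 1358 and 852 CPM.

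Ribosomal protein genes were a small share. The 85 genes of cytosolic ribosomal proteins held 0.782, 0.199, 0.470 and 0.533% of counts, of which 75 had a mean of at least 10 CPM and 12 at least 100 CPM. Each of the 75 was lowest in replicate 3, and 74 were highest in replicate 1 (72 under TMM and DESeq2 scaling), whereas 28.4% and 21.1% of all genes were. Without replicate 3 their share was 0.595 ± 0.165%, against 0.496 ± 0.239% with it. Rpl4 had 235, 100, 214 and 220 CPM, and Rpl39, the member with the highest CV among those of at least 10 CPM, had 42.4, 3.97, 18.4 and 17.7 CPM (CV 0.77). Short genes in general were often lowest in replicate 3. Among protein coding genes of at least 10 CPM this held for 90.8% of those under 1 kb and 62.8% of those of 1 to 2 kb. Ribosomal protein genes have many processed copies, so their counts are uncertain. Translation factors summed to 3173, 2278, 2897 and 2722 CPM.

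The starts of the ribosomal protein genes were compared with those of myelin genes. Whether the start sequence bears on the levels given above was not tested. Transcripts of ribosomal proteins are known to begin with a run of pyrimidines, the 5′ terminal oligopyrimidine tract, through which their translation is controlled. A promoter window of RefSeq (GRCm38.p6), 250 bases before to 50 after the start of the gene, was found for 56 of the 75 genes. A run of at least 8 bases that are all C or T, with at least 1 of its bases no more than 5 bases from the start, was present in 19 of them (33.9%), beside 9.63% of all 27025 promoters and 9.86% of genes with at least 10 CPM. It was in none of the 24 myelin genes with a window and in 11.3% of the respiratory chain genes. The motif CTTCCG, read on either strand of the 250 bases, was in 53.6% of the ribosomal protein genes, 27.1% of genes with at least 10 CPM, 13.8% of all promoters and none of the 24 myelin genes. A match is a description of letters and not of a bound site. The 30 bases from 10 before the start, with any such run in capitals, are shown for 4 ribosomal protein genes with the run and for 3 abundant myelin genes without it (Rps9 chr7:3704031-3704060, Rpl18 chr7:45718061-45718090, Rpl14 chr9:120571507-120571536, Fau chr19:6057937-6057966, Cnp chr11:100574929-100574958 and Mobp chr9:120149732-120149761 on the plus strand, and Mal chr2:127656676-127656705 on the minus strand).
Rps9: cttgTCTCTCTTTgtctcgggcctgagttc
Rpl18: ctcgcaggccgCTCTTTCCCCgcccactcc
Rpl14: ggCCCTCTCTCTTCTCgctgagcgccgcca
Fau: gcccccaCTTCTTCCTCTTTCTTgactcca
Cnp: ccccgcccccaggctatgaaagggaccctg
Mal: tcctgctggcatatagtttccctgacgagc
Mobp: gaggtcgcccagctccaccagggcccgcta

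Chaperone and lysosomal genes were among the even classes. Chaperones of the endoplasmic reticulum, where myelin proteins fold, summed to 2905, 2655, 2669 and 2771 CPM, and Hspa5, the main one, had 607, 483, 474 and 443 CPM. Heat shock proteins of the cytosol summed to 4185 ± 759 CPM, with Hsp90ab1 at 1472, 788, 1218 and 1253 CPM. The 22 lysosomal genes summed to 6772, 6451, 7876 and 6832 CPM, and with all 4 samples their median CV of 0.188 was the lowest of the gene classes. Without replicate 3 it was 0.139 and no longer the lowest, since proteasome subunits had 0.114. Ctsd, a lysosomal protease, had 463, 524, 440 and 465 CPM (CV 0.08), and Lamp1, of the lysosomal membrane, had 1452, 1384, 2286 and 1411 CPM. The 35 proteasome subunits with at least 10 CPM, led by Psmb6 with 293 ± 103 CPM, had a median CV of 0.303, near that of all genes, and 29 of them were lowest in replicate 3, beside 28.4% of all genes. The median CV was 0.114 without replicate 3. Ubb had 1467, 613, 1602 and 1138 CPM. Calmodulins and calcium sensors summed to 3059, 1294, 2645 and 2739 CPM, and all 10 were lowest in replicate 3, beside 28.4% of all genes. Without it the sum was 2815 ± 217 CPM. Immediate early genes, which cell isolation is known to induce, summed to 651, 579, 695 and 547 CPM, and Jun led with 154 ± 31.0 CPM, while Fos had 115, 24.5, 89.9 and 33.9 CPM.

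The WT level of the COP9 signalosome sets the base for a study of its subunit 5, encoded by Cops5 and also known as Jab1. This complex removes the small modifier NEDD8 from cullins, the scaffolds of a family of ubiquitin ligases. All 10 subunit genes had a mean of at least 10 CPM, with sums of 1064, 752, 1064 and 987 CPM. Cops5 had 133, 46.7, 110 and 106 CPM (99.1 ± 36.9), and per length 139 ± 41.8 TPM. Gps1, which encodes subunit 1, was the highest by CPM with 148, 177, 183 and 156 CPM (CV 0.10), and Cops6 had 139 ± 27.7 CPM. Cops4, Cops9, Cops8, Cops7a and Cops3 lay between 78.6 and 105 CPM on average, Cops2 at 51.3 ± 10.2 CPM and Cops7b at 35.6 ± 15.2 CPM. The sum without replicate 3 was 1038 ± 44.5 CPM. Cops5 overlaps Cspp1 and Cops6 overlaps Mcm7, both on the opposite strand. Among the cullin and neddylation genes, the ring proteins Rnf7 and Rbx1 led with 369 ± 158 and 197 ± 75.7 CPM, and Nedd8 had 152 ± 63.7 CPM.

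Genes of cell cycle arrest had unlike levels. Of the 7 genes of cyclin-dependent kinase inhibitors, 4 had a mean of at least 10 CPM. Cdkn2d, which encodes p19INK4d, was the highest with 60.1, 33.5, 79.9 and 50.5 CPM. Cdkn1a, which encodes p21, had 85.1, 43.7, 13.8 and 22.1 CPM, so its samples differed by 6.15 times and its CV was 0.77. Cdkn1b, which encodes p27, had 15.9 ± 5.80 CPM, Cdkn1c 11.3 ± 1.18 CPM, Cdkn2c 9.12 ± 1.27 CPM and Cdkn2b 1.87 ± 1.19 CPM. Cdkn2a, the p16INK4a and p19ARF gene that is used as a marker of senescence, had 0.0723, 0, 0 and 0.0110 CPM, which is at or below 8 counts in each sample. The 20 DNA repair genes summed to 492 ± 45.8 CPM, with Xrcc6 at 71.2 ± 18.1 CPM and Parp1 at 42.8 ± 21.7 CPM. Cell cycle and replication genes summed to 865, 402, 391 and 623 CPM. Ccnd2, a D-type cyclin, gave 405, 134, 134 and 307 CPM of this, and Birc5, which is made in mitosis, reached 27.9 CPM in replicate 1 and 10.6 CPM in replicate 6, against 2.99 CPM or less in the others.

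Long noncoding RNAs other than Malat1 were much lower. Neat1, the scaffold of paraspeckles, had 525, 734, 584 and 626 CPM with a CV of 0.14. Kcnq1ot1, an imprinted antisense transcript, had 184 ± 52.9 CPM, and Gm42418 had 216 ± 135 CPM. The class held 4.49, 2.41, 3.31 and 6.78% of counts, and this follows Malat1 closely.

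Of the 9853 genes with at least 10 CPM, 356 had a CV below 0.1 and 52 a CV above 1. edgeR's common biological coefficient of variation, which leaves counting error out, was 0.393, and 0.312 without replicate 3. The most even protein coding genes with at least 100 CPM were Gramd3, Gpatch8, Tmem106b, Glmp, Mpzl1, Cyp2j6, Limch1, Mpv17, Rufy3 and Ppt1, with CVs from 0.02 to 0.06. Gramd3 had 130.1, 129.6, 124 and 128 CPM, Tmem106b, of the lysosomal membrane, had 101, 109.8, 105 and 103 CPM, and Ppt1, a lysosomal thioesterase, had 242, 235, 264 and 235 CPM. Under TMM or DESeq2 scaling none of the 10 was among the 10 most even, so these names depend on the scaling.

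**Figure D4:**
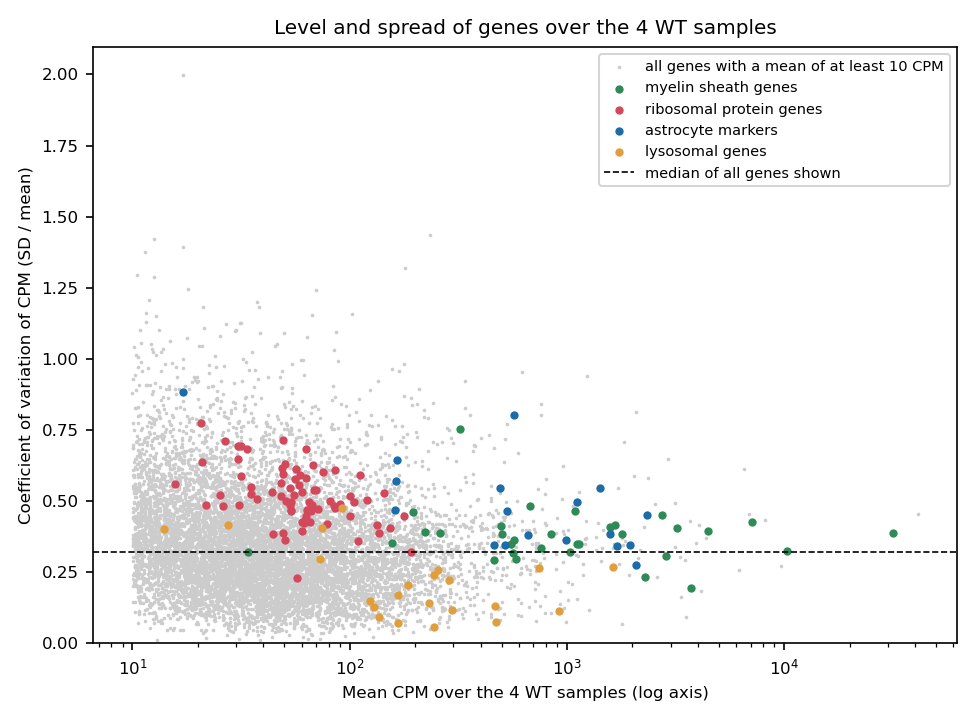
Mean CPM (log axis) and coefficient of variation over the 4 WT samples for each gene with a mean of at least 10 CPM, in grey, with 4 gene groups in color. The dashed line is the median of 0.322, and ribosomal protein genes lie mostly above it while lysosomal genes lie mostly below.

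The most variable protein coding genes with at least 100 CPM included Leng8, Slc6a9, Dtx3, Dag1, Pacs2, Efnb3, Slc6a11, Adgrg1 and Pkd1. All of the 10 most variable were highest in replicate 3, where 35.0% of the 1824 genes of that level were highest. Leng8 had 64.5, 738, 56.7 and 77.3 CPM. Slc6a9, a glycine transporter, had 45.8, 532, 106 and 34.1 CPM. Slc6a11, a GABA transporter that astrocytes express, had 419, 1493, 196 and 368 CPM. In each of them replicate 3 lay far from the other 3 samples.

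None of the 10 was among the 10 most variable when replicate 3 was left out. Those were Sgk1, Ttr, Nfkbia, Fabp7, Xrcc3, Gadd45g, Map6d1, Per3, Cdk18 and Slc7a11, and this list was drawn up after the data had been seen. Sgk1, a kinase induced by glucocorticoids and stress, had 721, 362, 176 and 92.0 CPM. Nfkbia, an inhibitor of NF-kB, had 272, 108, 97.0 and 84.0 CPM. Both were highest in replicate 1. Fabp7, a fatty acid binding protein of astrocytes and progenitors, had 216, 60.5, 40.0 and 126 CPM. The median CV of genes of at least 100 CPM was 0.303 with all 4 samples and 0.198 over 1757 genes without replicate 3.

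The values of replicate 3 moved with gene length. Protein coding genes with at least 10 CPM were grouped by the summed length of their exons. The 347 genes under 1 kb held 7.29, 2.39, 5.44 and 6.04% of the counts of all these genes, and 90.8% of them were lowest in replicate 3. The 2956 genes of 3 to 5 kb held 24.7, 31.4, 27.9 and 25.2%. The median log2 ratio of replicate 3 to the mean of the others was -1.33 under 1 kb, -0.59 at 1 to 2 kb, 0.03 at 2 to 3 kb, 0.41 at 3 to 5 kb, 0.54 at 5 to 8 kb and 0.44 over 8 kb. In replicate 5 it was -0.04 under 1 kb and -0.56 over 8 kb. In replicate 1 it was 0.71 under 1 kb and -0.19 over 8 kb. For replicates 1 and 5 the mean of the others includes replicate 3, so signs opposite to those of replicate 3 are partly built in.

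**Figure D5:**
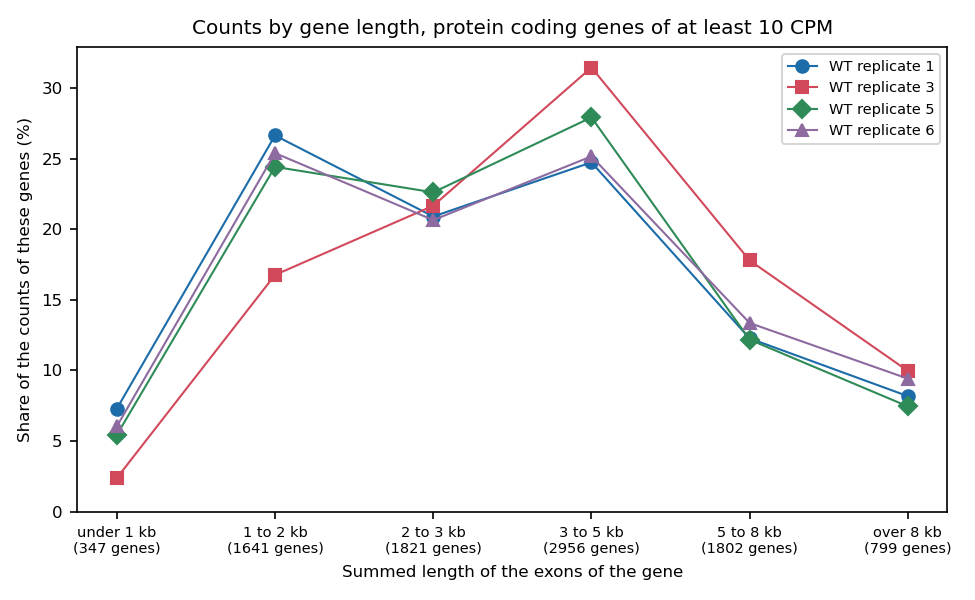
Share of the counts of protein coding genes with at least 10 CPM, in percent, by the summed exon length of the gene, with a line per WT sample. Replicate 3 has the lowest share under 2 kb and the highest share at 3 kb and above.

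The classes lowest in replicate 3 hold short genes, such as those of ribosomal proteins, respiratory chain subunits, hemoglobins and calmodulins, and several genes that were highest in it, such as Pkd1 and Dag1, have exons summing to 14686 and 5961 bases. What set replicate 3 apart was not tested. Beside the length pattern, replicate 3 had the highest total of counts and the lowest share of mitochondrial ribosomal RNA.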

How the data were processed

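RNA was from FACS-sorted O1+ cells of 4 WT samples. Libraries were made with SMART-Seq v4, which amplifies full-length cDNA, and read as pairs on a NovaSeq 6000. The authors trimmed reads with Trimmomatic 0.32, aligned them with STAR 2.5.3a to GRCm38 and deposited whole-number counts per gene from featureCounts with GENCODE M22. The setting for strand and for reads that match several places is not given in the sources used here. The authors used DESeq2 in R 3.5.1 for their own comparisons, which were not used here.

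From these counts CPM was computed on the total of each sample, and TPM with the summed exon length of GENCODE M21, which matched 54402 of 55376 symbols (98.2%, with 99.5% of counts). All columns were mapped from the labels, and only the WT columns were read. Totals were 90757237 to 153495112 counts, and 3 counts, the limit that a count of 0 allows, were 0.0195 to 0.0331 CPM, for counting error only. CV was computed where the mean reached 10 CPM. The biological CV was estimated with edgeR 4.0.16 (estimateDisp) in R 4.3.3, with limma 3.58.1 installed, and was tested on simulated data. Other scalings used TMM factors and DESeq2 1.42.0 size factors. Tables and plots were made with Python 3.11.15, numpy 2.4.6, pandas 2.3.3, scipy 1.17.1 and matplotlib 3.10.9. Samples within the group differed by more than sampling noise, with a chi-square per degree of freedom of 170 or more in every pair. Nothing says whether the samples were prepared in separate runs, so the SD may include technical spread.

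Genes named are the 30 with the highest mean CPM, the 10 with the highest TPM, the 4 highest of each list and its highest CV at 10 CPM or more, the 10 lowest and 10 highest CVs among protein coding genes of at least 100 CPM, all genes of the lists of mature oligodendrocytes, lineage transcription factors, COP9 subunits and cyclin-dependent kinase inhibitors, and list genes at 0 in all 4 samples. The samples, gene lists and rule were chosen with earlier results of these data known. Some genes that the rule picked are not reported here. No test between groups was made. Alternatives were leaving out each replicate, TMM or DESeq2 scaling, totals without mitochondrially encoded genes or with only genes of at least 1 CPM in all samples, a minimum of 1 CPM, and the longest transcript as length. The lists of the most and least variable genes without replicate 3 were added after seeing the data.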

Additional observations from a re-analysis of the deposited data

Results flagged for a closer look

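A value was picked out where the gap between the highest or lowest of the 4 samples and its nearest neighbour, divided by the whole range, passed the 95% critical value of Dixon's test for 4 samples. Of 285 values examined, 27 passed (9.47%), namely 5 of 44 list sums and 22 of 241 genes, 21 of which are given here. Chance flags about 1 in 20 groups (5%). The distant sample was replicate 3 in 19 cases, replicate 5 in 6, and replicates 1 and 6 in 1 case each.

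Replicate 5 was high for the sum of the compact myelin and myelin sheath genes (ratio 0.835) and for the sum of Mbp, Cnp, Mag and Mog (0.885). It was also high for the transcription factor gene St18 (0.885), the lysosomal membrane gene Lamp1 (0.924) and the heat shock gene Hspa1b (0.899, with 7.49, 8.27, 33.0 and 5.51 CPM), and low for Tcf7l2 (0.854).

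Replicate 3 was high for the sums of axo-glial adhesion genes (0.841), connexins and ion transport genes (0.902) and sterol synthesis genes (0.960). Among genes of at least 100 CPM it was high for Leng8 (0.970), Slc6a9 (0.855), Dtx3 (0.910, with 55.2, 279, 33.0 and 41.3 CPM), Dag1 (0.845, with 93.0, 439.7, 61.7 and 120.4 CPM), Pacs2 (0.838, with 72.5, 382, 113 and 61.3 CPM), Adgrg1 (0.879, with 216, 801, 136 and 197 CPM), Pkd1 (0.901, with 63.7, 319, 65.7 and 88.9 CPM) and Zeb2 (0.831). These include genes that were named for a high CV, so a distant sample in them is part of how they were picked. Among lower genes it was high for Cand1, which exchanges cullin partners (0.837, with 24.3, 101, 24.6 and 36.8 CPM), Gfap (0.884), the endothelial receptor gene Tie1 (0.883, with 7.33, 35.3, 4.63 and 8.21 CPM) and the collagen gene Col1a1 (0.915, with 4.93, 33.4, 3.36 and 5.92 CPM). It was low for Aldoa, a glycolytic enzyme (0.921, with 1031, 877, 1019 and 1022 CPM), Cops4 (0.866) and Rpl4 (0.843).

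Replicate 1 stood apart for Cdkn2a (0.848) and replicate 6 for Ptprc (0.901), where all samples had 1.55 CPM or less.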

How the results depend on the processing

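Leaving out each replicate, 27 to 29 of the 30 genes with the highest mean CPM stayed among the 30, and 26 to 29 did so under the other settings. The share of counts in myelin genes was 7.06 to 9.15% on leaving out a replicate and 8.57 to 8.72% otherwise, of long noncoding RNAs 3.41 to 4.86%, of mitochondrially encoded genes 2.27 to 2.92% and of ribosomal protein genes 0.401 to 0.595%. The ratio of the 18 astrocyte markers to the 4 mature oligodendrocyte markers was 0.754 without replicate 3 and 1.09 without replicate 5. Values for the other omissions lay between them. The median CV was 0.230 to 0.339, and the common biological CV 0.312 to 0.429, or 0.577 with the 16148 genes of at least 1 CPM. Recomputed means were held against 1 SD over the 4 samples. Leaving out 1 sample cannot move such a mean that far, so those values were bound to stay and do not show stability. Of 2110 recomputed values for 302 results, 2100 stayed within 1 SD or, for counts and CVs, within 1.5 times. The 10 that did not were the mean of Gramd3, which was 131 CPM with the total taken without mitochondrial genes, and the membership of the lists of the most even and most variable genes. Of the 10 most even genes, 0 stayed under TMM or DESeq2 scaling and 0 to 3 on leaving out a replicate. Of the 10 most variable, 0 stayed without replicate 3, 5 without replicate 5 and 6 without replicate 1. Depth limits little here, since 1 CPM is at least 90.8 counts, but 4 samples limit every SD. No paired analysis was possible because 1 genotype was described and no groups were compared.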

Other observations

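Sex-linked genes, chosen after their values were seen, were uneven over the pooled WT samples. Xist, the noncoding RNA of the inactive X chromosome, had 68.6, 0.0782, 0 and 0 CPM. Y-linked genes were present in all 4 samples, with Ddx3y at 54.9, 106, 98.3 and 104 CPM, Eif2s3y at 167, 170.4, 111 and 245 CPM, Uty at 15.0, 21.6, 19.4 and 19.4 CPM and Kdm5d at 22.8, 39.1, 24.6 and 31.4 CPM. Xist thus reached 1 CPM in replicate 1 only, and Ddx3y, Uty and Kdm5d were lowest there.

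Of the 13 cell cycle and replication genes with at least 10 CPM, 7 were highest in replicate 1, 3 in replicate 3, 2 in replicate 5 and 1 in replicate 6, beside 21.1% of all genes for replicate 1. From this list, Top2a and Cdk1 were chosen after their values were seen. Top2a, which untangles replicated DNA, had 40.5, 14.6, 5.63 and 9.09 CPM, and Cdk1, the kinase that drives entry into mitosis, had 26.3, 1.84, 1.15 and 8.20 CPM. Cdkn1a was also highest in replicate 1.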
